A study of Mus musculus with 48 samples.

Results

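The genes described here are 6 genes that mark germ cells, Dazl, Ddx4, Dppa3, Mael, Nanos3 and Kit, followed through mouse libraries that were prepared to hold the somatic cells of the gonad or cells made to resemble them. They were chosen by symbol as known germ cell genes. In the count table of the gonadal stages all 6 were found among 22173 genes, 5 were among the 13682 genes of the FPKM table, where Mael is not listed, and all 6, by Ensembl identifier, among the 32285 genes of the single-cell table. The series holds 48 samples, all labelled as strain C57BL/6. By the labels, gonadal somatic cells (GSCs) were separated from female gonads of embryonic days E12.5, E13.5 and E16.5 and from ovaries 6 weeks after birth (P6w), with 2 libraries per stage. Female embryonic stem cells (ESCs) on fibronectin were given no compound (Con), vitamin C (Vc), AM580, an agonist of retinoic acid receptor alpha, or both (V580), with 2 libraries per treatment at 24 h and at 48 h. V580 cells were further collected on days 4, 6, 8 and 10 (V580_D4 to V580_D10) beside cells of female E12.5 gonads (E12.5_GC), with 3 libraries per group. The series also holds 1 10x single-cell sample of V580_D6. Per the methods, cells of the E12.5 gonad were split with magnetic beads against SSEA1, a carbohydrate on the surface of early germ cells. Nothing in the labels says that replicates came from separate animals or cultures, so p-values measure the spread between libraries, which may be technical.

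Primordial germ cells (PGCs) settle in the genital ridge, where those of a female embryo stop dividing and enter meiosis before birth. On the way they switch on a set of germ cell genes, many of which are silenced in somatic tissues by DNA methylation or by a repressor complex, PRC1.6. Dazl is an RNA-binding protein that licenses germ cells for gametogenesis, and Nanos3 is an RNA-binding protein that keeps migrating PGCs alive. Ddx4 (Vasa) is an RNA helicase of the germ granules, and Mael (Maelstrom) takes part there in the piRNA pathway that silences transposons. Dppa3 (Stella) is a nuclear protein of PGCs, oocytes and naive ESCs that protects DNA methylation in the early embryo. Kit is a receptor tyrosine kinase on germ cells and oocytes, whose ligand Kitl is made by the surrounding somatic cells, and mast cells and other blood cells carry Kit as well.

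All 6 genes are protein-coding and, in GENCODE vM21 on GRCm38 (mm10), lie apart from one another. Dazl spans chr17:50279395-50293636 and Ddx4 chr13:112598333-112652475, both on the minus strand. Mael lies at chr1:166201201-166238747 and Nanos3 at chr8:84173731-84185217, again on the minus strand, and the span of Nanos3 also holds the microRNA genes Mir181c and Mir181d on the same strand. On the plus strand, Kit spans chr5:75574916-75656722 and Dppa3 chr6:122626410-122630272. No annotated gene overlaps any of the 6 on the opposite strand. The transcripts of Dppa3 share 135 of their 842 words of 50 bases (16.03%) with the pseudogene Dppa3-ps on chromosome X, 21 with Gm15620 and 18 with Gm47576, so that reads from these stretches cannot be assigned to Dppa3 with certainty. The other 5 genes share no word of 50 bases with another annotated transcript.

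The stretch before the start site is shown for Dazl, Ddx4 and Mael, since these 3 rose together between the stages described next. These are the 250 bases upstream of the RefSeq start on GRCm38.p6, 5′ to 3′ on the minus strand: chr17:50293621-50293870 for Dazl, chr13:112652311-112652560 for Ddx4 and chr1:166238745-166238994 for Mael. Capitals mark a match, on either strand, to CACGTG, the E-box letters bound by helix-loop-helix proteins such as the Mga and Max subunits of PRC1.6, or to GCGGGAA, a word of the E2F type, the family of its E2f6 subunit.
Dazl: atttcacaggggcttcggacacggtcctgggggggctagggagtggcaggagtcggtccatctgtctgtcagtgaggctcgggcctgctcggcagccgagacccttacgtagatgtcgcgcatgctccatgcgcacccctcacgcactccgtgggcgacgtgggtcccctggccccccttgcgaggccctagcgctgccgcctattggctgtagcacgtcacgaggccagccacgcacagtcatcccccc
Ddx4: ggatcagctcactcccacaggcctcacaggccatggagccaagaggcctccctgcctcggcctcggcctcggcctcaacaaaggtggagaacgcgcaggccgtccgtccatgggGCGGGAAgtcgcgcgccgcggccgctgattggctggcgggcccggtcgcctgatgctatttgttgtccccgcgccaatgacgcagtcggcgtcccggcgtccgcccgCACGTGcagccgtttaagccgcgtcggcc
Mael: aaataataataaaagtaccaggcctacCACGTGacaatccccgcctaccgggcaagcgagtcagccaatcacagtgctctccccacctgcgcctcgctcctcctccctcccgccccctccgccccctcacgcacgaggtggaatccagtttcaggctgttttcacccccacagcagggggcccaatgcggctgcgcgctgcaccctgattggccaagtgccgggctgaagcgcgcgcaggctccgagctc
The Ddx4 stretch held both words without overlap, CACGTG at 29 and GCGGGAA at 136 bases before the start, and the Mael stretch held CACGTG at 223 bases before it. No match was found for Dazl, and 5 of the 6 genes were in the table of promoters. Over the stretches of all 27018 genes in that table, 6.86% held CACGTG, 4.38% held GCGGGAA and 0.452% held both. For these shares any stretch listed for a gene counted, and for CG numbers over all genes its highest. For the genes described here only the first listed stretch was searched. The Ddx4 stretch counted 31 CG dinucleotides, a number that 5.86% of genes reached, against 20 for Dazl, 18 for Mael, 17 for Kit, 3 for Nanos3 and a median of 6. A match describes the letters and not a bound site.

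Depth and purity of the libraries touch all values that follow. The 8 GSC libraries held 12694769 to 22259044 counted reads, and levels are given as CPM, counts scaled to the same total in each library. Ddx3y, a gene of the Y chromosome, was at 4.49 and 5.09 CPM in the E12.5 libraries, which the labels give as female, and at no more than 0.228 CPM in the others. RNA of a Y-linked gene thus set the E12.5 libraries apart, and the part of male cells in the comparisons with E12.5 was not tested. The gonadal somatic markers Gata4, Wt1, Nr5a1, Foxl2, Lhx9 and Amhr2 summed to between 1034 and 1938 CPM in each GSC library. Of the 8 fixed germ cell markers, which include 5 of the genes described here, the sum was 21.8 to 22.4 CPM in E12.5 libraries, 53.4 to 54.0 in those of E13.5, 131 to 171 in those of E16.5 and 26.4 to 28.0 in those of P6w. Endothelial markers summed to between 25.3 and 210 CPM. The share of germ cells in each library was not measured otherwise, and in bulk samples fewer cells of a type and less RNA per cell cannot be told apart. By the labels, the E12.5 and E13.5 libraries and the first of E16.5 ran on lane 5, and the second of E16.5 and those of P6w on lane 1. Stage and lane therefore cannot be told apart where P6w is set against E12.5 or E13.5.

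Across the 4 stages, Dazl, Ddx4 and Mael followed a common course, with an embryonic rise to a peak at E16.5 and low levels in the adult. Mael moved most, 102-fold between E12.5 and E16.5, followed by Dazl at 13.3-fold and Ddx4 at 10.5-fold. Dppa3 was high at E13.5, and Kit was lowest there. Nanos3 had 9 to 35 counts in each embryonic library and was lowest at P6w. Its falls from E12.5 and from E16.5 to P6w were each lost in some alternative fits. Per kilobase of transcript, which allows genes to be compared, the mean level at E16.5 was 15.95 CPM per kb for Mael, 13.9 for Dazl, 3.12 for Ddx4, 1.26 for Dppa3, 1.26 for Kit and 0.813 for Nanos3, whereas at E12.5 no gene of the 6 exceeded 1.046.

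**Figure D1:**
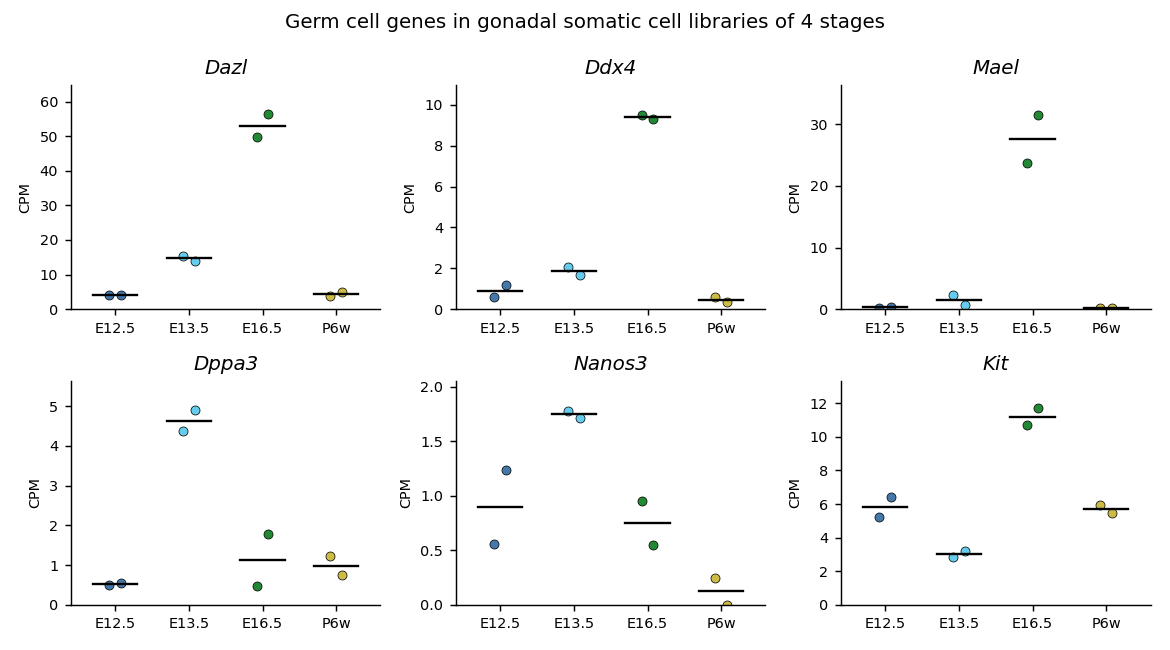
Counts scaled to library size (CPM, vertical axes from 0) of the 6 genes in each of the 8 GSC libraries (points), with the mean of each of the 4 stages (line, n = 2). Dazl, Ddx4 and Mael peaked at E16.5, with means of 53.1, 9.41 and 27.6 CPM, and Dppa3 at E13.5 with 4.64 CPM.

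Dazl stood at 3.94 and 4.05 CPM in the E12.5 libraries, 15.3 and 14.0 in those of E13.5, 49.9 and 56.3 in those of E16.5, and 3.68 and 4.83 in those of P6w. The 3 embryonic stages did not overlap, and the P6w libraries lay on either side of those of E12.5. On the log2 scale Dazl rose by 1.88 ± 0.192 (SE) at E13.5 (edgeR adjusted p = 6.23e-06) and by 3.73 ± 0.193 at E16.5 relative to E12.5 (adjusted p = 4.7e-09). Between E16.5 and P6w it fell by 3.64 ± 0.201 (edgeR adjusted p = 8.25e-10), and P6w differed from E12.5 by 0.09 (adjusted p = 0.756).

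Mael had the lowest start, with 4 and 7 counts at E12.5, and the widest swing. E12.5 libraries held 0.185 and 0.346 CPM, E13.5 libraries 2.24 and 0.741, E16.5 libraries 23.8 and 31.5, and P6w libraries 0.163 and 0.250. Both E16.5 libraries exceeded all others more than any spread within a stage, while the E13.5 libraries, with 44 and 13 counts, differed among themselves. The rise was 2.49 ± 0.558 at E13.5 (edgeR adjusted p = 0.00205) and 6.67 ± 0.452 at E16.5 (4.81e-08), both log2 relative to E12.5. Without the first E13.5 library the former was 1.48 (edgeR adjusted p = 0.0648). The 5 counts at P6w gave a ratio to E16.5 of 0.00764, with an exact interval of 0.00248 to 0.0179 for counting error alone.

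Ddx4 counted 13 and 24 reads at E12.5 and 220 and 152 at E16.5. E12.5 libraries held 0.602 and 1.19 CPM, E13.5 libraries 2.08 and 1.65, E16.5 libraries 9.52 and 9.30, and P6w libraries 0.572 and 0.333. E16.5 stood apart from all other stages, and E13.5 stood above E12.5 by less. Relative to E12.5, Ddx4 rose by 3.40 ± 0.373 at E16.5 (edgeR adjusted p = 5.94e-06) and by 1.07 ± 0.401 at E13.5 (edgeR adjusted p = 0.0403), log2. The E13.5 difference was 0.65 without the first E12.5 library (edgeR adjusted p = 0.312) and 0.91 without the first E13.5 library (edgeR adjusted p = 0.159), and DESeq2 gave it an adjusted p of 0.0884. Between E16.5 and P6w it fell by 4.355 on the log2 scale (edgeR adjusted p = 8.34e-07).

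Dppa3 took another course. E12.5 libraries, with 11 counts each, held 0.510 and 0.544 CPM, and E13.5 libraries, with 86 each, 4.37 and 4.91. E16.5 libraries held 0.476 and 1.77 CPM and P6w libraries 1.23 and 0.749. The E13.5 libraries lay above all others, and the E16.5 libraries differed from each other by a factor larger than that between E12.5 and P6w. From E12.5 to E13.5 Dppa3 rose by 3.12 ± 0.553 (edgeR adjusted p = 0.000358), and by E16.5 it had fallen by 2.10 ± 0.515 (edgeR adjusted p = 0.00304), log2. Relative to E12.5 the difference at E16.5 was 1.03 (edgeR adjusted p = 0.198), but 1.74 without the first E16.5 library (edgeR adjusted p = 0.0177). Pou5f1, a pluripotency factor that PGCs share with ESCs, moved beside it, with 3.06 and 1.58 CPM in E12.5 libraries, 12.7 and 17.2 in those of E13.5 and 1.39 and 1.29 in those of E16.5. It rose by 2.68 (edgeR adjusted p = 2.35e-05) and then fell by 3.47 (edgeR adjusted p = 2.2e-06) on the log2 scale. Erythroid markers were highest at E13.5 as well, at 27187 and 24930 CPM over 7 genes, against 12730 and 11547 in E12.5 libraries, 10911 and 6718 in those of E16.5, and 196 and 216 in those of P6w, and their part in the result was not tested.

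Nanos3 had 12 and 25 counts in E12.5 libraries, 35 and 30 in those of E13.5, 22 and 9 in those of E16.5, and 3 and 0 in those of P6w. Between embryonic stages the differences were 0.96 between E13.5 and E12.5 (edgeR adjusted p = 0.218) and -0.22 between E16.5 and E12.5 (edgeR adjusted p = 0.821), log2. P6w had the lowest libraries, and its 3 counts against 37 at E12.5 gave a ratio of 0.140, with an exact counting interval of 0.0276 to 0.442. The fall of 2.78 on the log2 scale (edgeR adjusted p = 0.0224) was lost without the second E12.5 library (-2.11, edgeR adjusted p = 0.159) or the second P6w library (-1.84, edgeR adjusted p = 0.169).

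Kit ran opposite to Dppa3 at E13.5. E12.5 libraries held 5.23 and 6.42 CPM, E13.5 libraries 2.85 and 3.19, E16.5 libraries 10.7 and 11.7, and P6w libraries 5.96 and 5.49. E13.5 lay below and E16.5 above the others, and P6w lay within the range of E12.5. Relative to E12.5 Kit fell by 0.95 ± 0.250 at E13.5 (edgeR adjusted p = 0.0061) and rose by 0.94 ± 0.230 at E16.5 (edgeR adjusted p = 0.00496), log2. The former was -0.45 once the trend of counts with gene length was removed (edgeR adjusted p = 0.185) and -0.80 without the second E12.5 library (edgeR adjusted p = 0.0683), and the latter was 0.79 without the first E12.5 library (edgeR adjusted p = 0.0794). Mast cell markers, of cells that carry Kit, were highest at E16.5, as Kit was, and at E13.5, where Kit was lowest, they stood above E12.5: their 8 genes summed to 4.31 and 7.71 CPM in E12.5 libraries, 36.1 and 23.7 in those of E13.5, 571 and 561 in those of E16.5, and 12.1 and 13.7 in those of P6w, and their part in the result was not tested. At E16.5 at most 1 of the 8 was at 0, at E12.5 3 or 4. Kitl, the ligand, was far more abundant per length, with a mean of 57.4 CPM per kb in E12.5 libraries, 34.4 in those of E13.5, 58.1 in those of E16.5 and 9.78 in those of P6w. It fell with Kit at E13.5, by 0.74 log2 (edgeR adjusted p = 7.43e-05), and at P6w by 2.55 (9.22e-11), where Kit differed from E12.5 by -0.02 (edgeR adjusted p = 0.944).

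Counted over the genes, 5 of 6 passed an adjusted p of 0.05 between E13.5 and E12.5 (4 higher, 1 lower), where 45.9% of 16398 tested genes did. Between E16.5 and E12.5 it was 4 of 6, all 4 higher, against 37.6%, and between P6w and E12.5 1 of 6, lower, against 52.9%. Against E13.5, 4 rose and 1 fell at E16.5 (54.1% of all genes called), and at P6w 1 rose and 5 fell (59.7%). Once the trend of counts with gene length was removed, P6w differed from E13.5 by 0.62 for Kit (edgeR adjusted p = 0.0583). For Dppa3 the difference was then -1.29 (edgeR adjusted p = 0.0546). Against E16.5, 5 fell at P6w (56.1%). The median log2 difference of the 6 was 1.47 at E13.5 and 2.21 at E16.5 relative to E12.5, with 0.03 and -0.01 for all genes, and -3.10 from E16.5 to P6w with -0.04 for all genes. The comparisons share libraries and are set side by side. Within a lane, the E16.5 rises over E12.5 were 3.64 for Dazl, 3.41 for Ddx4, 6.46 for Mael and 0.87 for Kit on lane 5, and the falls to P6w were -3.73, -4.34, -7.21 and -1.03 on lane 1. All 8 of these passed an edgeR adjusted p of 0.05, with the lone E16.5 library assumed to vary like the others, whereas the fall of Nanos3 did not on lane 1 (-2.09, edgeR adjusted p = 0.157).

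Other genes of the same pathways were described by lists. Of 15 piRNA and germ granule genes, 13 could be tested, and between E16.5 and E12.5 9 rose and none fell, with a median of 2.21, against 37.6% of all genes called and a median of -0.01. Mov10l1, a helicase that feeds the piRNA pathway, rose by 6.35 log2 from 0.307 to 25.9 CPM (edgeR adjusted p = 8.58e-07), and Asz1, a scaffold on mitochondria, by 4.47 (1.12e-06). Gtsf1, a partner of the PIWI proteins, had no count at E12.5 and 93 at E16.5, at least 32.9-fold higher against a floor of 3 counts over the group. Between P6w and E16.5, where 56.1% of all genes were called, 9 of the 13 fell and 1 rose: Tdrd5, a Tudor-domain protein, from 10.4 to 184 CPM, by 4.16 log2 (edgeR adjusted p = 8.87e-11), opposite to Ddx4 and Mael. Of 14 early germ cell genes, 11 were tested, and 5 rose at E13.5 relative to E12.5 (median 0.74), a share near the 45.9% of all genes called in that comparison (median 0.03), among them Pou5f1 and Dnd1, an RNA-binding partner of the NANOS proteins, by 1.13 (edgeR adjusted p = 0.000642). At E16.5 relative to E12.5 2 rose and 1 fell (37.6% of all genes called).

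Of 15 oocyte genes, 4 rose and 1 fell at E16.5 relative to E12.5, where 37.6% of all genes were called, led by Figla, the transcription factor of primordial follicles, with no count at E12.5 and 389 at E16.5 (at least 138-fold higher). At P6w 12 rose and 3 fell relative to E12.5, where 52.9% of all genes were called. Zp3, a zona pellucida protein, was at 38.8 CPM at P6w, 7.20 log2 above E16.5 (edgeR adjusted p = 1.43e-07). The 5 oocyte markers Gdf9, Bmp15, Zp1, Zp2 and Zp3 summed to 54.5 and 137 CPM in the P6w libraries and to at most 7.26 in the others. With genes at 0 set to their bound, the median of the list was 0.82 at E16.5 and 3.45 at P6w relative to E12.5. Of the 14 PRC1.6 genes, all tested, 2 rose and 6 fell between E13.5 and E12.5 (median -0.40, 45.9% of all genes called), the largest fall being that of Mga, the DNA-binding scaffold of the complex, by 1.49 (edgeR adjusted p = 9.66e-06).

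The genes whose log2(CPM + 1) ran most like each of the 6 over the 8 libraries were, by Pearson's r, Ubald2, Copz2 and Hp for Dazl (r up to 0.995), Gm773, Tmem178 and Elavl2 for Ddx4 (up to 0.993), and Sycp1, 4932431P20Rik and Meiob for Mael (up to 0.997). Sycp1 and Meiob act in meiotic prophase. For Dppa3 they were Gm5854, Wdr34 and 2900060B14Rik (up to 0.998), for Nanos3 Caly, Matk and Card9 (up to 0.968), and for Kit E2f8, Mir1906-2 and Nusap1 (up to 0.989). Among the 6 themselves, r was 0.980 for Ddx4 with Mael, 0.962 for Dazl with Ddx4 and 0.955 for Dazl with Mael, 0.00366 for Dppa3 with Mael and -0.629 for Dppa3 with Kit. With n = 8 libraries in 4 pairs, these values describe the order of the stages.

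In ESCs without a compound, Dazl and Ddx4 fell between 24 h and 48 h and Dppa3 rose. Dazl stood at 12.2 and 12.2 FPKM at 24 h and at 3.29 and 3.07 at 48 h, and Ddx4 at 27.2 and 27.0 and then at 12.7 and 12.8. Dppa3 went the other way, from 1.65 and 2.63 to 15.8 and 13.6 FPKM. No libraries of the 2 times overlapped for these 3 genes. On the log2(FPKM + 1) scale, which understates the change of low genes, Dazl fell by 1.66 ± 0.0675 (SE, limma adjusted p = 2.08e-11), Ddx4 fell by 1.03 ± 0.0548 (3.98e-10) and Dppa3 rose by 2.33 ± 0.156 (5.22e-09). Kit, at 0.691 and 0.826 and then 1.78 and 1.86 FPKM, was higher by 0.68 ± 0.0651 (limma adjusted p = 2.93e-07). Called here means an adjusted p below 0.05 and at least 2-fold on this scale, which 3 of the 5 genes met, against 7.72% of 10644 genes (4 of 5 and 66% without the fold limit). Where a single difference is said below to have lost its call, the adjusted p below 0.05 alone is meant, with no fold limit. Pou5f1, Nanog and Sox2, the core pluripotency factors, stood at 725, 32.2 and 158 FPKM at 24 h and at 456, 17.9 and 76.7 at 48 h.

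With vitamin C for 24 h, Dazl was higher than in the control, and the other 4 genes did not pass the test. The libraries held 12.2 and 12.2 FPKM in the control, 21.4 and 22.2 with Vc, 17.0 and 14.8 with AM580, and 26.6 and 26.7 with V580. All treated libraries lay above both controls, and the AM580 libraries lay below those with Vc. The difference from control was 0.79 ± 0.0675 with Vc (limma adjusted p = 5.49e-06), 0.35 with AM580 (limma adjusted p = 0.00229) and 1.06 with V580 (limma adjusted p = 3.21e-08), and V580 exceeded AM580 by 0.71 (limma adjusted p = 1.31e-05). The only call at 24 h that reached 2-fold was Dazl with V580, where 0.695% of genes were called. With Vc and with AM580, 0 of 5 genes were called, against 0.0846% and 0.404% of all genes, and without the fold limit 1 and 3 of 5, against 13.6% and 14.8%. Without the fold limit V580 had 4 of 5 (29% of all genes), and V580 against AM580 had 1 (14.8%), with 0 past 2-fold (0.0658%).

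At 48 h the level of Dazl was lower and its difference with vitamin C was smaller. Control libraries held 3.29 and 3.07 FPKM, Vc 3.72 and 3.57, AM580 3.23 and 3.33, and V580 5.95 and 5.16. The Vc libraries lay above the controls by less than the test could call (0.15, limma adjusted p = 0.161), those with AM580 overlapped with the controls (0.03, limma adjusted p = 0.697), and those with V580 lay above all others (0.65 ± 0.0675, limma adjusted p = 1.52e-06). V580 exceeded AM580 by 0.61 (limma adjusted p = 1.94e-05), so that the addition of Vc to AM580 went with more Dazl at both times. The change of the treatment effect from 24 h to 48 h was itself tested: it was -0.63 for Vc (limma adjusted p = 0.0021), -0.32 for AM580 (limma adjusted p = 0.0187) and -0.42 for V580 (limma adjusted p = 0.00389). Of all genes, 2.9%, 35% and 33.9% passed these interaction tests.

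**Figure D2:**
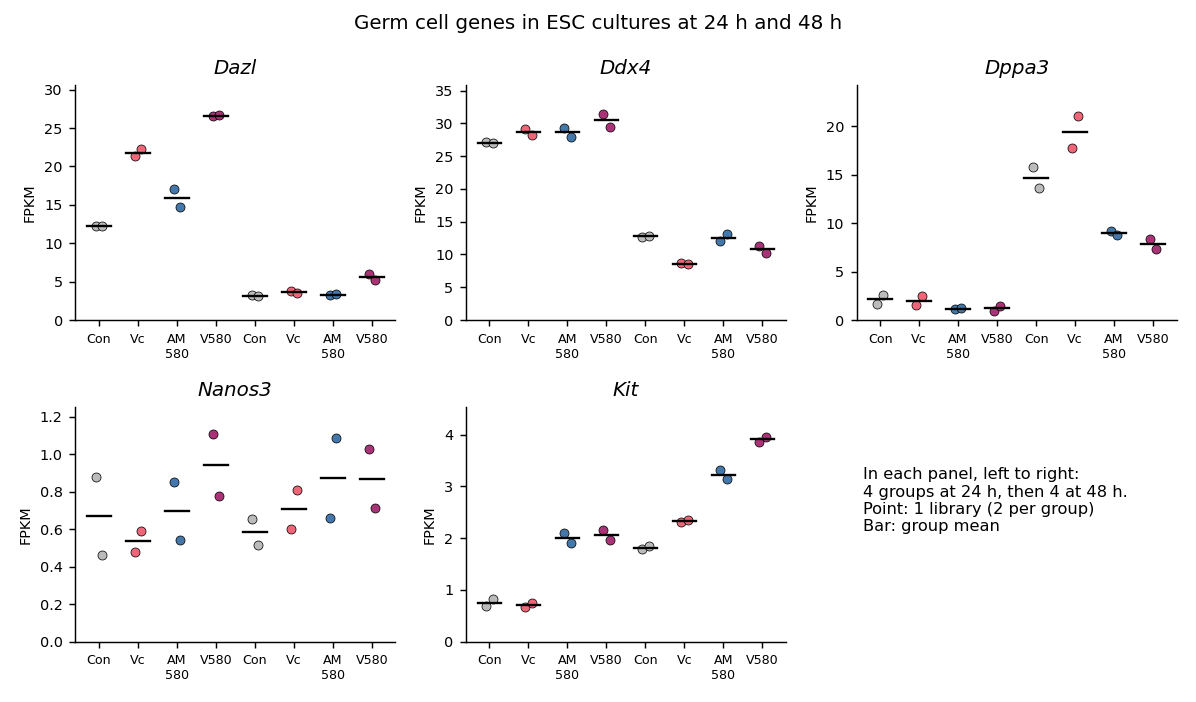
FPKM (vertical axes from 0) of the 5 listed genes in each library of Con, Vc, AM580 and V580 at 24 h and 48 h (points), with the group mean (line, n = 2). Dazl was highest in V580 at 24 h (26.6 and 26.7 FPKM), and Dppa3 in Vc at 48 h (17.8 and 21.0 FPKM).

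Ddx4 differed from control with Vc at 48 h and not at 24 h. At 24 h it stood at 27.2 and 27.0 FPKM in the control and at 29.2 and 28.3 with Vc, and at 48 h at 12.7 and 12.8 and at 8.69 and 8.49. The Vc libraries lay above the controls at the first time and below them at the second. The difference was 0.08 at 24 h (limma adjusted p = 0.361) and -0.52 ± 0.0548 at 48 h (4.02e-05), and the interaction of -0.60 passed its test (limma adjusted p = 0.000669). With V580 at 48 h, at 11.4 and 10.2 FPKM, it was lower by 0.22 (limma adjusted p = 0.00301), a call lost without the second V580 library (limma adjusted p = 0.055), and with AM580, at 11.98 and 13.17 FPKM, it differed by -0.02 (limma adjusted p = 0.769). The V580 interaction was -0.39 (limma adjusted p = 0.00156). All of these stayed under 2-fold, and at 48 h 0 of the 5 genes were called in the 3 treatments, against 0.047%, 3.23% and 3.18% of genes, or 2, 2 and 4 of 5 without the fold limit, against 12.4%, 57% and 57.1%. V580 against AM580 at 48 h had 3 of 5 without the limit (19.2%) and 0 with it (0.263%).

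Dppa3 was lower with AM580 and V580 at 48 h. Controls held 15.8 and 13.6 FPKM, Vc 17.8 and 21.0, AM580 9.13 and 8.76, and V580 8.35 and 7.30. The Vc libraries lay above and the AM580 and V580 libraries below both controls. The differences were 0.38 with Vc (limma adjusted p = 0.132), -0.65 ± 0.156 with AM580 (limma adjusted p = 0.00241) and -0.83 ± 0.156 with V580 (limma adjusted p = 0.000392). At 24 h, with 0.966 to 2.63 FPKM in all groups, the values were -0.53 with AM580 (limma adjusted p = 0.034) and -0.50 with V580 (limma adjusted p = 0.0268). Those 2 were lost without the second control library (-0.30 and -0.27, limma adjusted p = 0.334 and 0.28). The AM580 call was also lost without either AM580 library (limma adjusted p = 0.148 and 0.114), and the V580 call without the first V580 library (limma adjusted p = 0.225).

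Kit was higher with AM580 and V580 at both times. The ratios of mean FPKM to control were 2.64 and 1.78 with AM580 and 2.72 and 2.15 with V580 at 24 h and 48 h, and on the log2(FPKM + 1) scale all 4 differences were under 2-fold. At 24 h controls held 0.691 and 0.826 FPKM, Vc 0.663 and 0.751, AM580 2.10 and 1.91, and V580 2.16 and 1.96, and at 48 h 1.78 and 1.86, 2.30 and 2.36, 3.31 and 3.14, and 3.87 and 3.96. Every AM580 and V580 library lay above the controls of its time, and at 48 h so did both Vc libraries, by 0.24 (limma adjusted p = 0.0258). The Vc call was lost whichever of the 4 libraries was left out (limma adjusted p = 0.084 to 0.143). The differences were 0.77 and 0.59 with AM580 (limma adjusted p = 9.97e-07 and 2.89e-06) and 0.80 and 0.80 with V580 (3.58e-07 and 1.08e-07). V580 and AM580 differed by 0.03 at 24 h (limma adjusted p = 0.836), with 0.22 at 48 h (limma adjusted p = 0.0311), and the latter was lost without any 1 of the 4 libraries (limma adjusted p = 0.073 to 0.155) and with a pseudocount of 0.1 (limma adjusted p = 0.0885). Kitl stayed below 1 FPKM in all 16 libraries, and Nanos3 ranged from 0.462 to 1.11 FPKM with no treatment past an adjusted p of 0.05.

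The lists gave few calls at these times. Of 6 piRNA and germ granule genes tested, Piwil2, a PIWI protein, was higher with Vc by 0.38 at 24 h (limma adjusted p = 0.000988) and by 0.31 at 48 h (0.00415), and with V580 by 0.55 and 0.64 (9.1e-06 and 6.04e-07). Tex19.1, a germ cell and ESC protein that restrains transposons, fell in the control from 191 to 40.8 FPKM between the times, by 2.20 (limma adjusted p = 1.22e-13), as Dazl did. Of 14 PRC1.6 genes, 10 were lower and 2 higher with AM580 at 48 h at a limma adjusted p below 0.05 (median -0.28, all genes -0.03). The same limit was met by 57% of all genes. With V580 at 48 h 9 were lower and 1 higher (median -0.24, all genes -0.02), against 57.1% of all genes. None of these differences reached 2-fold. With Vc at 24 h 3 were higher and 1 lower, L3mbtl2, by 0.31 (limma adjusted p = 0.000222), where 13.6% of all genes passed. Of 11 early germ cell genes tested, 5 were higher and 5 lower with AM580 at 48 h at a limma adjusted p below 0.05, against 57% of all genes. Fut4, a fucosyltransferase, was higher with V580 by 0.75 at 24 h and 1.04 at 48 h (limma adjusted p = 1.74e-05 and 1.84e-07), from 0.328 to 1.23 and from 1.06 to 3.26 FPKM.

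From day 4 to day 10 of V580, Ddx4 remained the most abundant of the 5 genes, Dazl fell between days 4 and 6, Dppa3 came to be listed at 0 and Kit was highest on day 10. Ddx4 held 9.22, 8.98 and 9.65 FPKM on day 4, 4.94, 4.45 and 4.06 on day 6, 6.32, 6.47 and 5.88 on day 8, and 7.27, 7.25 and 6.28 on day 10. In the E12.5_GC libraries it stood at 0.561, 0.608 and 0.661 FPKM, below each V580 library. The difference on the log2(FPKM + 1) scale was 2.68, 1.77, 2.17 and 2.30 for days 4, 6, 8 and 10, each ± 0.0726 (SE), with limma adjusted p from 2.22e-11 to 1.53e-13. Among V580 days, Ddx4 was lower by 0.91 from day 4 to 6 (limma adjusted p = 1.36e-07) and higher by 0.40 from day 6 to 8 (limma adjusted p = 0.000517).

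Dazl stood at 5.02, 4.70 and 5.65 FPKM on day 4, 0.908, 0.895 and 0.878 on day 6, 0.962, 1.43 and 1.22 on day 8, and 1.599, 1.646 and 1.081 on day 10, against 0.537, 0.904 and 0.575 in E12.5_GC. Day 4 lay above all others, and day 6 overlapped with E12.5_GC. The fall was 1.69 ± 0.108 (limma adjusted p = 1.32e-08), and relative to E12.5_GC the difference was 1.88 on day 4 (limma adjusted p = 6.75e-10), 0.19 on day 6 (limma adjusted p = 0.143, and 0.0303 without the second E12.5_GC library), 0.40 on day 8 (limma adjusted p = 0.00506) and 0.54 on day 10 (limma adjusted p = 0.000417). Dppa3 was at 0.837, 0.498 and 0.561 FPKM on day 4 and at 0.0984, 0 and 0.0470 on day 6, and was listed at 0 in all 6 libraries of days 8 and 10. E12.5_GC held 0.968, 2.06 and 0.573 FPKM. It did not pass the filter on low values and was not tested here, so that 4 of the 5 genes were.

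**Figure D3:**
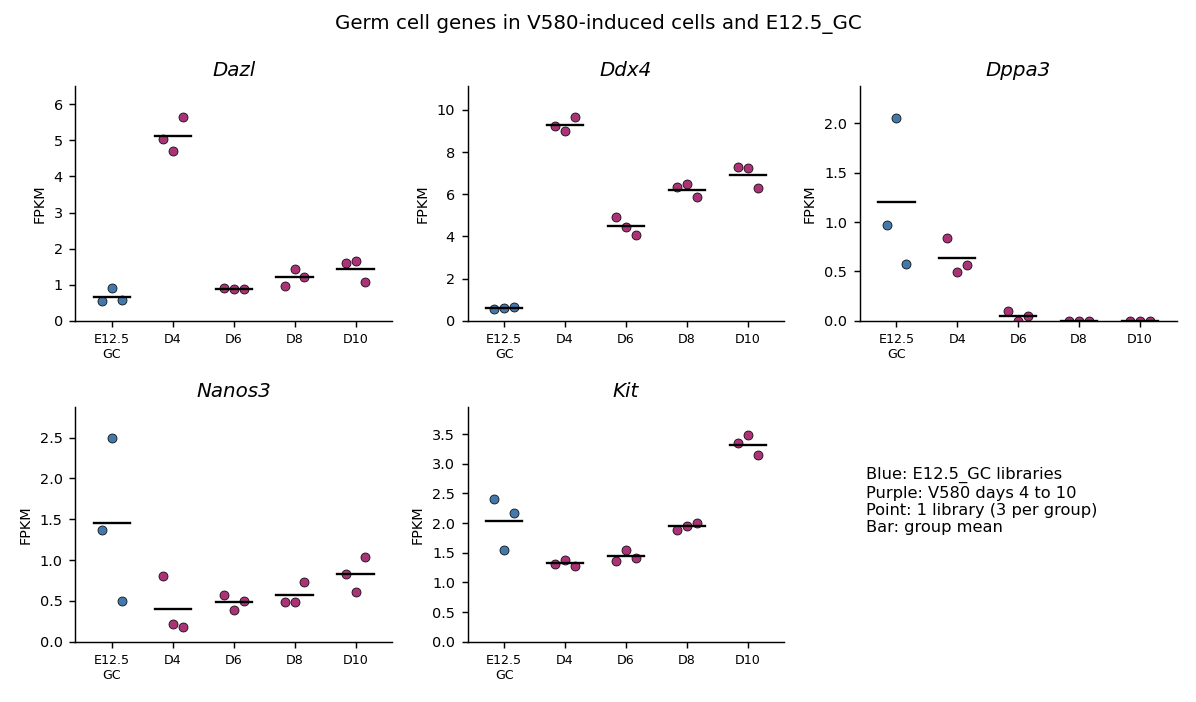
FPKM (vertical axes from 0) of the 5 listed genes in the E12.5_GC libraries and on days 4, 6, 8 and 10 of V580 (points), with the group mean (line, n = 3). Ddx4 stood between 4.06 and 9.65 FPKM in the V580 libraries and at most at 0.661 in E12.5_GC.

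Kit crossed the level of E12.5_GC, which was 2.40, 1.54 and 2.17 FPKM. It was at 1.32, 1.38 and 1.27 on day 4, 1.37, 1.55 and 1.41 on day 6, 1.89, 1.95 and 2.00 on day 8, and 3.35, 3.48 and 3.14 on day 10. Day 4 lay below and day 10 above the gonad libraries, with the other days within or at their lower edge. The differences were -0.38, -0.30, -0.03 and 0.52 (limma adjusted p = 0.00124, 0.0062, 0.746 and 8.38e-05), and the step from day 8 to 10 was 0.55 (0.000234). With the fit limited to the groups compared, day 6 did not pass (limma adjusted p = 0.0648), and without the second E12.5_GC library day 8 differed by -0.16 (limma adjusted p = 0.0326). Kitl went from 2.14 FPKM on day 4 to 6.55 on day 10, above Kit on both days, against 94.6 to 139 in E12.5_GC, and lay below E12.5_GC by 5.24 log2 on day 4 and 3.98 on day 10 (limma adjusted p = 6.64e-15 and 1.4e-13). Nanos3 ranged from 0.181 to 1.04 FPKM in V580 and was at 1.36, 2.49 and 0.497 in E12.5_GC, overlapping on each day. It passed the filter of 1 FPKM in 3 libraries through E12.5_GC, at 1.36 and 2.49 FPKM, and a day 10 library at 1.04. On days 4, 6 and 8 it reached at most 0.808 FPKM. The filter thus admitted it mainly through the group where it was higher, so the tests against that group are not independent of the filter. Its differences of -0.75, -0.64 and -0.56 on days 4, 6 and 8 passed the limma adjusted p of 0.05 (0.00946, 0.0242 and 0.0459). They were under 2-fold on the log2(FPKM + 1) scale, while the ratios of mean FPKM were 0.277, 0.335 and 0.392. The day 6 call was lost without replicate 2 or 3 of day 6 (limma adjusted p = 0.07 and 0.051). The day 8 call was lost without any 1 of the day 8 libraries (limma adjusted p = 0.0546 to 0.11), with a pseudocount of 0.1 (0.0799), without the filter on low values (0.0605) and with upper quartile scaling (0.0516). On day 10 the difference was -0.35 (limma adjusted p = 0.193), but -0.66 without the third E12.5_GC library (limma adjusted p = 0.00367).

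With the fold limit, 2 of the 4 tested genes were called on day 4 against E12.5_GC (20.4% of 11512 genes), and 1 each, Ddx4, on days 6, 8 and 10 (15.2%, 13% and 16.4%). Without it, 4, 3, 3 and 3 of 4 had a limma adjusted p below 0.05, against 71.6%, 67%, 63.2% and 69.5% of genes. Between days, Dazl was called from day 4 to 6 (5.08% of genes, or 2 of 4 genes and 44.9% without the limit), and 0 of 4 from day 6 to 8 (2.55%) and from day 8 to 10 (1.29%), where 2 and 1 of 4 had a limma adjusted p below 0.05 (41.1% and 34.5% of genes). All 4 comparisons with the gonad share the same 3 E12.5_GC libraries. Erythroid markers differed widely between these libraries, at 4440, 1695 and 1041 FPKM over 4 listed genes, and stayed between 0.818 and 1.52 in V580, and their part in the result was not tested. The 6 gonadal somatic markers summed to 469 to 548 FPKM in E12.5_GC and to 29.0 to 118 in V580. The pluripotent markers Pou5f1, Nanog, Sox2, Zfp42 and Esrrb summed to 20.1 to 22.8 FPKM on day 4 and 7.05 to 8.85 on day 6, so that they moved with Dazl and Dppa3 between these days, and their part in the result was not tested. By a limma adjusted p below 0.05 with no fold limit, which 67% of all genes met on day 6 against E12.5_GC, 4 of the 5 piRNA and germ granule genes tested were higher and 1 lower (median 0.90, all genes 0.03), Tex19.1 most, at 9.92 against 0.361 FPKM (3.00, limma adjusted p = 8.28e-14). By the same measure 7 of 9 early germ cell genes tested were higher and 2 lower on day 6, 4 of them by 2-fold (15.2% of all genes), with Epcam, an epithelial adhesion molecule, at 84.9 FPKM and Lin28a at 20.2 FPKM leading. Of 14 PRC1.6 genes 9 were higher and 2 lower, none by 2-fold.

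Likeness over all 31 FPKM libraries placed Ipo13, Lactb2 and Zbtb32 nearest to Dazl (r up to 0.974), Slc39a4, Csf1 and Mreg nearest to Ddx4 (up to 0.987) and Adi1, Rims4 and Aldh9a1 nearest to Dppa3 (up to 0.976). For Kit the nearest, Sgpp1, Slc30a9 and Acp5, reached 0.828, and for Nanos3, with Tpt1, Hadhb and Tpgs1, 0.697. Dazl and Ddx4 correlated with r = 0.886, Dazl and Kit with -0.339, over libraries that fall into 13 groups.

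The 10x library of V580_D6 cells allowed the 6 genes to be placed in single cells. It had 15412 barcodes, of which 15315 were kept, with a median of 9281 UMIs (counted molecules) and 3074 genes per cell. This is 1 library, so no condition was compared, and intervals cover counting error only. A UMI of Ddx4 was found in 1934 cells (12.6%, exact 95% interval 12.1 to 13.2), of Mael in 1348 (8.80%), of Kit in 1209 (7.89%), of Dazl in 436 (2.85%, 2.59 to 3.12), of Nanos3 in 393 (2.57%) and of Dppa3 in 51 (0.333%, 0.248 to 0.438). Detection grew with depth: cells with a Ddx4 UMI had a median of 16515 UMIs and those without 7256. Pooled over cells and scaled as CPM, the levels were 15.2 CPM for Ddx4, 15.2 for Kit, 10.0 for Mael, 6.60 for Dazl, 2.59 for Nanos3 and 1.54 for Dppa3.

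The genes differed in how their UMIs were spread over cells. Ddx4, Mael and Nanos3 were thin: the most in any cell was 7, 5 and 2 UMIs, and cells with at least 2 UMIs held 37.3%, 31.6% and 13.3% of the total. Dazl was concentrated, with up to 43 UMIs in a cell, and 60 cells with at least 5 held 49.9% of its UMIs. Dppa3 was the most concentrated of the 6, as 23 cells with at least 2 UMIs held 88.8% of its 250 UMIs. For Kit, 105 cells with at least 5 UMIs held 29.9%. These limits were chosen after the values were seen. Of the 8 mast cell markers, Tpsb2, Cpa3, Mcpt4, Fcer1a and Tpsab1 had no UMI in the 15315 cells, which allows a share of cells with a UMI of up to 0.0196% and sets no limit on cells that express the gene. Hdc had 65 UMIs in 57 cells, Ms4a2 32 in 30 cells and Cma1 3 in 3 cells.

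The 12 clusters were made from the same cells and so are a description and no test. Dppa3 pointed to cluster 5, Dazl did so in part, and Kit pointed to clusters 9 and 7. Cluster 5 held 1052 cells (6.87%) with a median of 15986 UMIs, with Wfdc2, Stra8, Cxcl15, Cldn3, Dppa5a and Wnt6 among its leading genes. Dppa3 stood there at 12.01 CPM (10.5 to 13.7), and the cluster held 91.2% of all Dppa3 UMIs and 11.7% of the UMIs of all genes, whereas clusters 0 to 4 and 6 to 10 had at most 0.840 CPM and cluster 11, from 1 UMI, 5.55. Dazl stood at 20.02 CPM there (18.1 to 22.1), 35.3% of its UMIs, at 27.8 in the 25 cells of cluster 11, from 5 UMIs, and at 1.57 to 8.40 elsewhere. Nanos3 was highest in the same cluster 5, at 4.90 CPM.

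Kit reached 249 CPM (217 to 284) in the 270 cells of cluster 9, led by Lama1, Col27a1, Tinagl1, Lamc1 and Lrp2, and 66.1 (62.9 to 69.5) in the 928 cells of cluster 7, led by Srgn, Rbp4, Pitx1 and Cubn. Cluster 7 held 61.8% of all Kit UMIs, and the other clusters had 2.75 to 17.2 CPM. The median depth was 2368 UMIs per cell in cluster 9 and 22737 in cluster 7, so shares of cells with a UMI, 41.1% and 59.6%, are not comparable. Ddx4 varied least, with 24.1 CPM in cluster 3, led by Actg2, Myh11 and Col1a1, 4.70 in the 66 cells of cluster 10 and 10.5 to 14.6 elsewhere. Mael was at 15.4 in cluster 2, led by the proliferation genes Aspm and Mki67, at 2.64 in cluster 7 and at 27.8 (9.01 to 64.8), from 5 UMIs, in the 25 cells of cluster 11. Free RNA in the droplets gives low, even counts as well, and its part in the result was not tested.

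**Figure D4:**
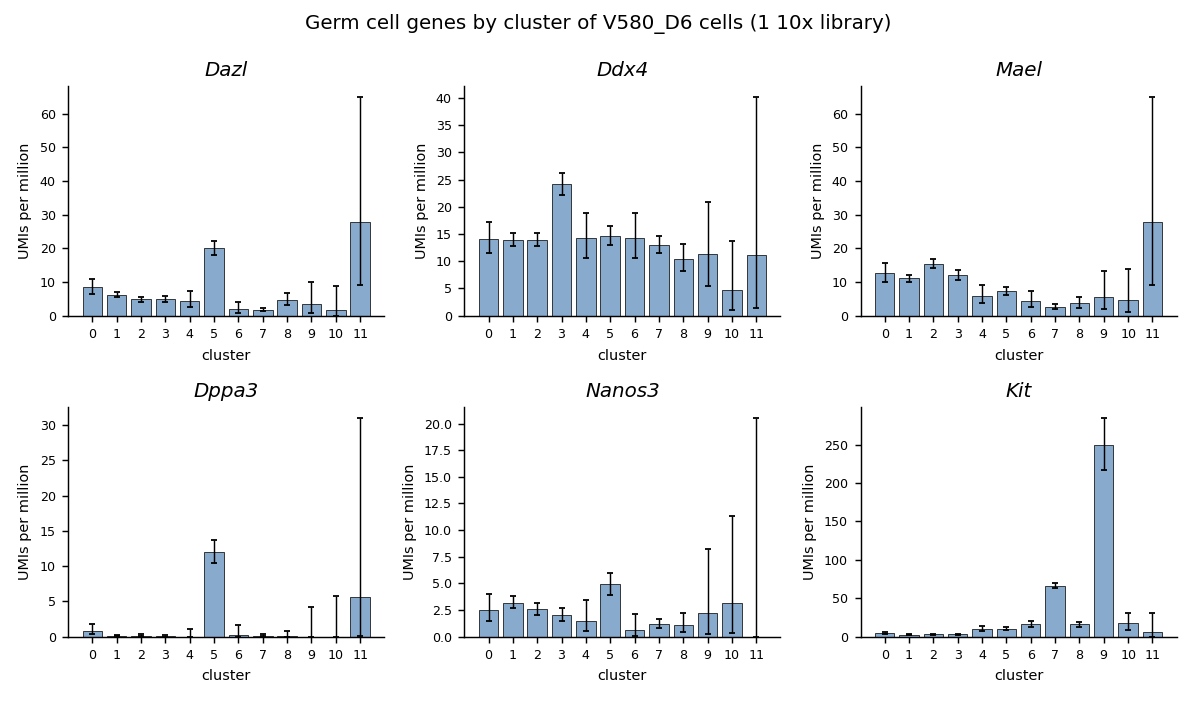
CPM of the UMIs (vertical axes from 0) of the 6 genes in each of the 12 clusters of V580_D6 cells, with exact 95% Poisson intervals (counting error only, 1 library). Dppa3 stood at 12.01 CPM in cluster 5, and Kit at 249 in cluster 9 and 66.1 in cluster 7.

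The 23 cells with at least 2 Dppa3 UMIs, 22 of them in cluster 5, were described further. Their median depth was 26374 UMIs against 9265 in the other 15292 cells, so shares are also given after thinning cells to 5000 UMIs, which left 22 and 9055 cells. Dazl was found in 78.3% of them against 2.73% of the others (54.5% and 1.77% after thinning), Nanos3 in 43.5% against 2.50% (22.7% and 1.48%) and Kit in 73.9% against 7.79% (36.4% and 4.46%). Ddx4 was found in 47.8% against 12.6%, and in 18.2% against 6.94% after thinning. Mael was found in 17.4% against 8.79%, and in none of the 22 thinned cells against 4.65%.

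These cells also held pluripotency transcripts: Nanog in 87.0% against 0.530% of the others (59.1% and 0.287% after thinning), Sox2 in 91.3% against 2.55% (77.3% and 1.67%), and Pou5f1 in 69.6% against 1.45% (31.8% and 0.795%). Stra8, a gene induced by retinoic acid that germ cells need to enter meiosis, was in 87.0% against 5.14% (86.4% and 3.17% after thinning). It was also a leading gene of the whole cluster 5, where 22 of the 23 cells lay, and the rest of that cluster was not described apart. Dnd1 was in 4.35%, 1 cell of 23, against 18.1% of the others. The gonadal markers Wt1 and Gata4 were in 34.8% and 17.4% against 52.9% and 19.5%, and after thinning in 18.2% and 4.55% against 52.5% and 12.9%. Amhr2 and Foxl2 of the same list went the other way, in 8.70% and 4.35% against 2.88% and 1.62%, from 2 cells and 1 cell. After thinning both were in 4.55%, against 1.48% and 0.817%. Lhx9 and Nr5a1 were in 0%, against 0.700% and 0.0392%. The 60 cells with at least 5 Dazl UMIs were mostly other cells, and 25 of them (41.7%) lay in cluster 5. Dppa3 was found in 18.3% of these 60 against 0.262% of the other cells (13.3% and 0.155% after thinning). Nanog was in 21.7% against 0.577% (15.0% and 0.299%), and Wt1 in 70.0% against 52.9% (41.7% and 52.6%). Genes beside the 6 in this description were chosen after their values were seen. No step removed doublets, 2 cells counted as 1, and their part in the result was not tested.

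**Figure D5:**
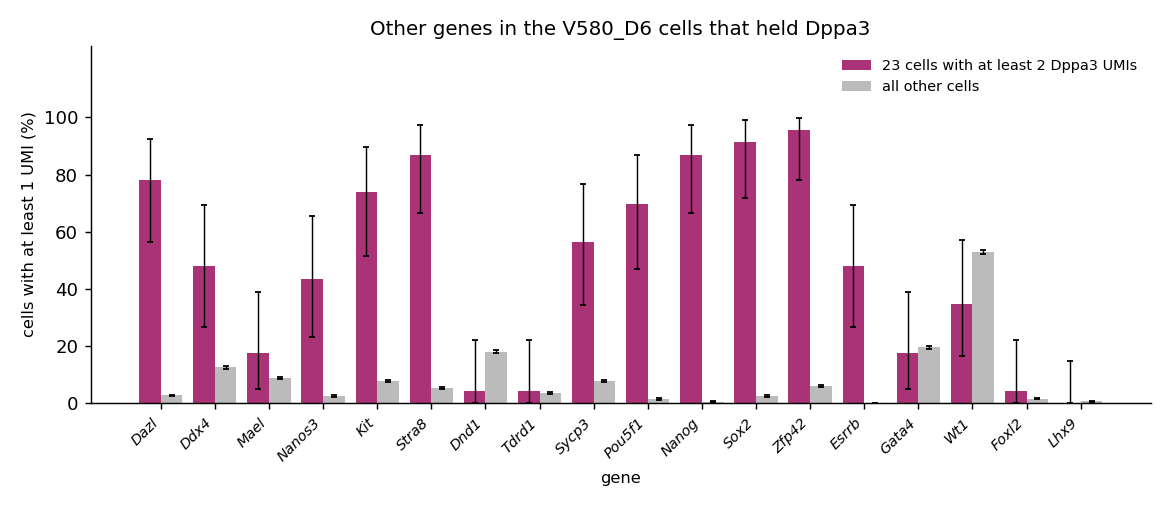
Share of cells with at least 1 UMI of each gene (%, vertical axis from 0) among the 23 V580_D6 cells with at least 2 Dppa3 UMIs and among the other 15292 cells, with exact 95% binomial intervals. Nanog was found in 87.0% against 0.530% and Dazl in 78.3% against 2.73%.

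Of the 5 genes other than Kit, 11788 cells showed none, 2963 showed 1, 504 showed 2, 51 showed 3, 7 showed 4 and 2 showed all 5. Of the 436 cells with Dazl, 113 (25.9%) also had Ddx4, which is 5.84% of the cells with Ddx4. Dazl and Dppa3 met in 25 cells, 5.73% of the former and 49.0% of the latter. The median depth rose from 5093 UMIs in cells with none of the 5 genes to 19485 in cells with 2, so that these overlaps rise with depth too.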

How the data were processed

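The genes were measured by poly-A RNA sequencing of 39 bulk libraries and by 1 10x library, in 48 samples of which 8 libraries of PGCs were not used, since the 10 value columns of their table could not be matched to samples. For the gonadal stages the authors deposited read counts per gene (mm10, with HISAT2 and featureCounts among the tools in the submitters' processing notes), and for the induced cells and E12.5_GC the authors deposited FPKM values, with the tool for that table not given in the sources used here and the depth unknown. The library kit did not mark strand. The 10x UMI counts were deposited as a Cell Ranger matrix.

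Counts were tested with edgeR 4.0.16 (quasi-likelihood, TMM, filterByExpr, 8 libraries together) and FPKM with limma 3.58.1 (trend) as log2(FPKM + 1), keeping genes with at least 1 FPKM in 3 libraries (days) or 2 (treatments), in R 4.3.3. P-values were adjusted by Benjamini-Hochberg over all tested genes. FPKM calls also needed a 2-fold difference. DESeq2 1.42.0 and other settings were alternatives. Barcodes under 200 genes or over 40% mitochondrial UMIs were left out, and the rest clustered with scanpy 1.11.5 (2000 variable genes, 20 components, Leiden resolution 0.5). All 15412 barcodes are distinct and of 1 library. Precision of counts is limited by totals of 12694769 to 22259044 per library. Intervals and floors cover counting error only.

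The genes and the lists (early germ cell, piRNA and germ granule, oocyte, PRC1.6, and markers of other cells) were chosen with earlier results of these data known. The 6 genes, Kitl, Pou5f1, Nanog and Sox2 are named by rule, with at most 3 genes per list and comparison, those with the largest differences among called genes. Tdrd5 between P6w and E16.5, and Piwil2, L3mbtl2 and Fut4 in treatments where they were not called, were chosen after their values were seen. The genes most alike were the 3 with the highest Pearson's r. The edgeR and limma steps were tested on simulated data.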

Additional observations from a re-analysis of the deposited data

Results flagged for a closer look

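Results are named here because the difference of a treatment from its control, itself on the log2(FPKM + 1) scale, changed between 24 h and 48 h by a limma test of the change. For Dazl it changed by -0.63 ± 0.0954 (SE) with Vc (adjusted p = 0.0021), by -0.32 with AM580 (limma adjusted p = 0.0187) and by -0.42 with V580 (limma adjusted p = 0.00389). For Ddx4 it changed by -0.60 ± 0.0776 with Vc (limma adjusted p = 0.000669) and by -0.39 with V580 (limma adjusted p = 0.00156). In the same tests 2.9%, 35% and 33.9% of all genes passed for Vc, AM580 and V580. The 3 treatments share their control libraries.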

How the results depend on the processing

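Of 73 differences of the genes with an adjusted p below 0.05, 54 kept it under every alternative and 19 lost it under at least 1, and none turned its sign. Of the 51 others, 20 turned sign under at least 1 alternative (lowest adjusted p 0.18 with edgeR or limma) and 6 passed under at least 1. With the trend of counts with length removed, 3 genes were called between E13.5 and E12.5, and with only the groups compared in the fit, 0 between P6w and E12.5. The causes were not tested. Leaving out 1 library gave 3 to 5 calls for E13.5 against E12.5 (3 without E13.5 replicate 1), 3 to 5 for E16.5 against E12.5, 0 to 1 for P6w against E12.5 (0 without E12.5 or P6w replicate 2), 4 to 5 for P6w against E16.5 and 2 to 3 for day 4 against E12.5_GC.

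Without the 2-fold limit, calls were 4, 3, 3 and 3 of 4 on days 4, 6, 8 and 10 against E12.5_GC, and 2, 2 and 1 between successive days. They were 1, 3 and 4 of 5 for Vc, AM580 and V580 at 24 h, 2, 2 and 4 at 48 h, and 1 and 3 for V580 against AM580 at 24 h and 48 h. A pseudocount of 0.1 gave 2 calls each on days 6 and 10 and from day 4 to 6, 1 with AM580 and 2 with V580 at 24 h, 1 with V580 at 48 h and 2 for the change of the AM580 difference. Without the filter there were 2 calls each on days 6, 8 and 10. Without the 5% of cells with most UMIs the shares of cells with a UMI were 2.56% for Dazl, 11.3% for Ddx4, 8.14% for Mael, 2.30% for Nanos3 and 6.33% for Kit.

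The main fits did not pair samples by replicate number, and whether the numbers mark pairs was not settled. Deviations of same-numbered libraries correlated between -0.040 and 0.067 (stages), -0.431 and 0.386 (days) and -0.424 and 0.209 (treatments). Of the libraries, 10 of 15 (days) and 12 of 16 (treatments) correlated best with their own number. In treatments, with 2 libraries per group, the deviations from the group mean mirror each other, so that both libraries of a group score alike. The share expected by chance was not computed, so these counts are no test of pairing. A replicate block moved the calls over all genes from 7530 to 7619 between E13.5 and E12.5 and by factors of 0.896 to 1.016 over all comparisons. Of the 6 genes' differences with an adjusted p below 0.05, that of Nanos3 on day 8 no longer passed under it (limma adjusted p = 0.056). At E12.5 Ddx4, Dppa3, Mael and Nanos3 had 4 to 25 counts per library, which limits what the comparisons with it can show.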
